A study of Mus musculus with 48 samples.

Results

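The 45 genes described here encode proteins that copy DNA and make its building blocks, and all 45 were found among the 20007 genes of a UMI count table of sorted mouse B lineage cells. They were listed by name, with earlier results of these data known, and taken from the table by symbol. By role they fall into 3 genes of origin licensing, 6 of the MCM2-7 helicase, 6 of helicase activation, 9 of the polymerases and primase, 6 of the sliding clamp and its loader, 5 of Okazaki fragment processing and single-strand binding, 5 of deoxynucleotide synthesis, and 5 that copy DNA methylation, assemble chromatin or serve histone mRNA. A UMI (unique molecular identifier) tags 1 captured mRNA molecule near its 3′ end, so a count stands for molecules and was not divided by gene length.

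The study set 8 mice carrying a c-Rel transgene (c-RelTG, called transgenic) against 8 controls lacking it. All 16 had received SRBC (sheep red blood cells) as an immunization, which starts germinal center (GC) reactions in the spleen. Both genotypes carried 1 further allele, which is not reported here, and the labels give no strain, age or time after immunization. From the spleen of each mouse 1000 cells were sorted into each of 3 libraries: naive B cells (IgD high, IgM low), GC B cells (B220 positive, IgD negative, CD38 low, CD95 high, GL7 positive) and plasma cells (B220 low, CD138 positive), for 48 libraries in 6 groups of 8. c-Rel is the NF-kB subunit encoded by Rel.

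DNA is copied once per division. Origins are loaded with the MCM2-7 helicase by licensing factors (Orc6, Cdc6, Cdt1), the helicase is switched on by Cdc45, the GINS proteins and Mcm10, and polymerases held on DNA by the PCNA clamp, which replication factor C loads, extend the strands that primase starts. Ribonucleotide reductase, thymidylate synthase, thymidine kinase and dUTPase supply and clean the deoxynucleotides, and many of these genes are known targets of E2F factors, which are active as cells enter S phase. GC B cells are among the fastest dividing cells of the body, naive B cells rest, and plasma cells have left the cycle or are about to, with their newly formed cells (plasmablasts) still dividing.

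Naive libraries held 97993 to 159857 UMIs, GC libraries 401207 to 695137 and plasma cell libraries 481229 to 794273. GC libraries of transgenic mice were deeper than those of controls (469916 to 695137 against 401207 to 594068; two-sided exact permutation test over 8 against 8 mice, p = 0.00839, 0.0252 adjusted over 3 populations). Levels are given as CPM, UMI counts scaled to 1 common total after correction of library totals by TMM, a method that centres most genes. The factors were 0.486 to 0.604 in plasma cells, where immunoglobulin genes took 50.3 ± 2.06% (SD, n = 8) of control UMIs, and 1.29 to 1.42 in the other populations. Summed over 6 of 7 listed GC markers, levels were 1102 to 1345 CPM in GC libraries and 35.4 to 142 elsewhere. The 7 plasma cell markers summed to 66460 to 157146 in plasma cells and 1015 to 4731 elsewhere. Of 7 listed naive markers, 6 (without Ighm) summed to 4519 to 5116 in naive cells and 79.3 to 750 elsewhere. With Ighm all 7 summed to 7610 to 11541 in naive cells. In plasma cells they then summed to 159501 to 374526 in controls and 53202 to 153465 in transgenic mice. Rel had 61 UMIs over the control GC libraries and 160 over the transgenic ones (12.1 ± 4.62 against 25.9 ± 6.64 CPM), 1 against 18 in plasma cells and 35 against 34 in naive cells; 3′ tags of Rel need not come from the transgene.

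Promoter sequences of these genes were searched for short motifs. RefSeq promoter windows (GRCm38.p6, from 250 bases before to 50 after a start) were at hand for 38 of the 45 genes. Any of 3 E2F-type motifs, TTTCCCGC, TTTGGCGC or TTTCGCGC on either strand, stood in the windows of 15 of the 38 (39.5%), against 573 of 27025 genes with a window (2.12%) and 256 of 4787 genes that were also tested in GC B cells (5.35%). The motifs overlap one another on opposite strands, so 1 stretch can hold a pair. Matches were counted anywhere in a window, for the background shares too. Only in Mcm5, Mcm6 and Pola1 did matches lie before both the RefSeq start and the gene's start in GENCODE. By role the count was 2 of 3 for licensing, 4 of 5 for MCM2-7, 1 of 3 for helicase activation, 4 of 7 for polymerases and primase, 1 of 5 for clamp and loader, 1 of 5 for Okazaki processing, 0 of 5 for deoxynucleotide synthesis and 2 of 5 for the chromatin group. CCAAT stood in 63.2% of the 38, against 41.1% of all genes. TTTGAA, the cell cycle homology element, stood in 15.8% against 20.2% of all genes. It stood in 14.5% of genes tested in GC B cells and 71.4% of 21 mitosis genes. A kappaB-type sequence (GGG, any 2 bases, then TTTCC) stood in 0 of 38 against 1.89% of all genes, which says only that these letters are not in those windows. A match is a run of letters and not a bound site, and the lack of these exact strings does not show the lack of a site.

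Below are the only 3 promoters with E2F-type matches in the stretch shown, and those of the 3 genes whose GC level differed between genotypes. Each is the part of the RefSeq window before both the RefSeq start and the gene's start in GENCODE, 5′ to 3′ on the gene's strand, and capitals mark the matches. Mcm5 and Mcm6 encode helicase subunits and Pola1 the catalytic subunit of DNA polymerase alpha. Pcna encodes the clamp, Tyms thymidylate synthase and Rfc1 the large subunit of the clamp loader.
Mcm5 chr8:75109259-75109508 (plus strand): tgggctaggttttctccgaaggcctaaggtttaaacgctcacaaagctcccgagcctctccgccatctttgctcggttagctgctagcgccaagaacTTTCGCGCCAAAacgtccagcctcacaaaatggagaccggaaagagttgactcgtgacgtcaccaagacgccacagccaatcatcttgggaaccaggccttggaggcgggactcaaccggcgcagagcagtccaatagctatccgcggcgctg
Mcm6 chr1:128359706-128359955 (minus strand): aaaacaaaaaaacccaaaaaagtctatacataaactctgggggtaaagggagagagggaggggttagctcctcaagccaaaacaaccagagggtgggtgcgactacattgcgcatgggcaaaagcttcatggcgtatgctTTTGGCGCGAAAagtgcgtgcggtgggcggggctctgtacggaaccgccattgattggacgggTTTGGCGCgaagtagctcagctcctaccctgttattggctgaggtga
Pola1 chrX:93632156-93632405 (minus strand): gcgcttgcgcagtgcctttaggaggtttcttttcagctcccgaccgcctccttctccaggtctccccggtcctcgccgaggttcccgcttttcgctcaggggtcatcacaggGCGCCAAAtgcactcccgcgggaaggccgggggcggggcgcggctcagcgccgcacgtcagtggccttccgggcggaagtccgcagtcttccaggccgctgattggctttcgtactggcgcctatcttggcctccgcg
Pcna chr2:132253315-132253430 (minus strand): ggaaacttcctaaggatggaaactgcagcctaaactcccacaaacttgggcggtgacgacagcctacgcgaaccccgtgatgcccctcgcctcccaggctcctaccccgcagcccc
Tyms chr5:30073626-30073875 (minus strand): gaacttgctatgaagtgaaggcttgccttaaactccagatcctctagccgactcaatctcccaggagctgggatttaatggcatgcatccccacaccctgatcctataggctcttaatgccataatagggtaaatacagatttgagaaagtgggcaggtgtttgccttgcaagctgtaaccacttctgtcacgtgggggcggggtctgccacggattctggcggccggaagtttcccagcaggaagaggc
Rfc1 chr5:65335671-65335889 (minus strand): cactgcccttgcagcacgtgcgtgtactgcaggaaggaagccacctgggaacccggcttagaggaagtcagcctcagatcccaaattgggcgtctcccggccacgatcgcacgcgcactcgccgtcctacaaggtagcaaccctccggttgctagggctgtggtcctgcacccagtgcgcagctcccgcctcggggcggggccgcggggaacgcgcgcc

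In Mcm5 a pair of overlapping matches began 153 and 149 bases before the start, in Mcm6 matches began 110, 106 and 47 bases before it, and in Pola1 1 match began 138 bases before it. The windows of Pcna, Tyms and Rfc1 held none of the 3 motifs. In GENCODE M21 coordinates on GRCm38 the Pcna gene (ENSMUSG00000027342) lies on the minus strand of chr2:132249162-132253314, Tyms (ENSMUSG00000025747) on that of chr5:30058202-30073617 and Rfc1 (ENSMUSG00000029191) on that of chr5:65261850-65335670.

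GC B cells carried far more replication mRNA than naive B cells or plasma cells in both genotypes. Summed over the 45 genes, control naive libraries held 1652 to 2072 CPM (median 1882), control GC libraries 7777 to 9255 (median 8573) and control plasma cell libraries 1678 to 2634 (median 1990). The transgenic libraries held 1598 to 2212 (median 1860), 8448 to 10020 (median 9270) and 1652 to 3026 (median 2426). Every GC library stood above every naive and plasma cell library, whereas naive and plasma cell libraries overlapped. As a share of all UMIs the genes made up 1.10 to 1.29% of control GC libraries, 0.221 to 0.281% of naive and 0.0918 to 0.150% of plasma cell ones; with immunoglobulin UMIs left out, the plasma cell share was 0.181 to 0.288%. In bulk samples fewer cells in S phase and less mRNA per such cell cannot be told apart.

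**Figure D1:**
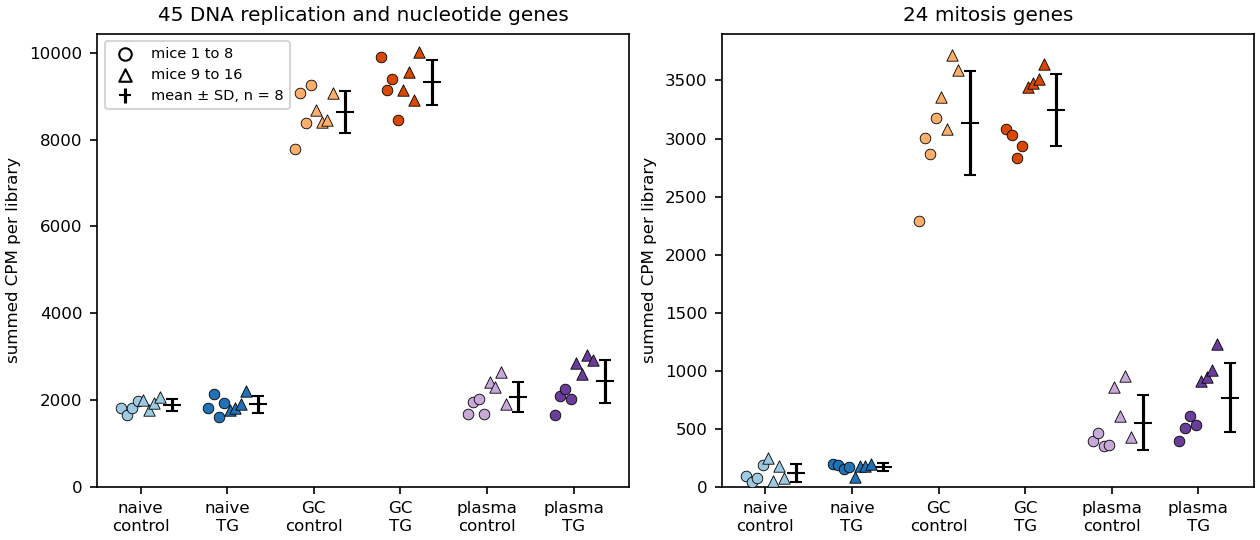
Summed level in CPM (y axis, from 0) of the 45 genes (left) and of 24 mitosis genes (right) in each of the 48 libraries, by group on the x axis (TG, transgenic); circles are mice 1 to 8, triangles mice 9 to 16, and bars the mean ± SD (n = 8). GC libraries hold 7777 to 10020 CPM of the 45 genes, and in transgenic plasma cells the triangles (2593 to 3026) lie above the circles (1652 to 2259).

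In control mice 43 of the 45 genes could be tested between populations, and 41 were higher in GC than in naive B cells, with 0 lower (edgeR quasi-likelihood test, Benjamini-Hochberg adjusted p under 0.05). Among all 6503 genes 26.7% were higher. A gene was tested if its counts sufficed in as few libraries as 1 group holds. In single populations 7 of the 45 passed this filter in naive cells, 22 in plasma cells and 45 in GC B cells. Many of the 43 were thus tested through their GC counts. The median log2 fold change of the 43 genes was 2.56, against 0.00 over all genes. In transgenic mice 42 of 45 were higher, 40 of them also called in controls (97.6% of the 41 and 95.2% of the 42), where 27.6% of all genes were higher; the median was 2.47. All 8 control GC libraries lay above all 8 control naive libraries for 41 of 45 genes, against 12.6% of all genes tested, and this held for 39 of 45 in transgenic mice, against 13.9%. The means of 44 of the 45 genes were highest in a GC group, the exception being Pold2.

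Orc6, a subunit of the origin recognition complex, rose 2.74 on the log2 scale in control GC B cells (SE 0.25, adjusted p = 1.37e-18 by edgeR), while Cdt1, which helps load the helicase, did not pass. Cdt1 had 63.3 to 147 CPM (median 117) in control naive libraries, 118 to 162 (median 140) in GC and 65.5 to 106 (median 88.0) in plasma cells. Its naive and GC libraries overlapped (log2 fold change 0.26, SE 0.14, adjusted p = 0.115 by edgeR). Cdc6 had 1 UMI over the 8 control naive libraries and 91 over the GC ones, and was too low to be tested in controls; in transgenic mice it rose 2.58 in GC B cells.

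All 6 MCM2-7 subunits rose, from 2.26 (Mcm7) to 3.05 (Mcm6), with a median of 2.59. Mcm6 had at most 84.4 CPM (median 60.2) in control naive libraries and 486 to 540 (median 530) in GC, with no overlap (SE 0.14, adjusted p = 7.75e-35 by edgeR). All 6 helicase activators rose with a median of 3.08. Cdc45, the factor that completes the active helicase, rose 3.11, whereas Gins4, a GINS subunit, rose least at 0.77. Gins4 had 28.4 to 63.3 CPM in naive and 63.4 to 99.5 in GC libraries of controls, groups that only just separate. Control naive libraries together held 4 UMIs of Mcm10, 6 of Gins1, 7 of Gins3, 10 of Gins2 and 14 of Cdc45, against 55 of Gins4. Apart from Gins4, the size of these rises and their median are thus set by few molecules.

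The polymerases moved unevenly, with 7 of 8 tested higher in GC B cells of controls. Pola1 rose 2.97, Pole2, a subunit of polymerase epsilon, 2.90 and Pole, its catalytic subunit, 2.61. Over the 8 control naive libraries Pola1 had 6 UMIs, Pole2 7 and Pole 7, against 200 for Pold1 and 85 for Pold2. The size of the Pola1, Pole2 and Pole rises is thus set by few molecules. The polymerase delta subunits moved less: the catalytic subunit Pold1 rose 0.65 (SE 0.12, adjusted p = 1.29e-06 by edgeR), Pold2 rose 0.75, and Pold3 had 0.58 with an adjusted p of 0.167. Pold1 had 107 to 223 CPM (median 164) in control naive libraries and 244 to 303 (median 264) in GC. The groups did not overlap, but the step was small beside those of the other polymerases named.

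All 6 clamp and loader genes rose, with a median of 2.12. Pcna had 187 to 256 CPM (median 221) in control naive libraries and 971 to 1170 (median 1037) in GC, a log2 fold change of 2.24 (SE 0.09, adjusted p = 3.91e-44 by edgeR). Rfc5 rose 2.62 and Rfc2 1.41, both subunits of the loader. The 5 Okazaki and single-strand binding genes rose with a median of 1.30. Lig1, the ligase that seals Okazaki fragments, rose 3.12 and Fen1, the nuclease that trims their flaps, 2.40. With 16 Lig1 UMIs over all control naive libraries, the size of its rise is set by few molecules. Rpa1, Rpa2 and Rpa3, the subunits of the single-strand binding protein, rose between 1.01 and 1.30.

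The 5 deoxynucleotide genes had the highest role median in controls, 3.59; in transgenic mice theirs was 2.97, below the 3.10 of the chromatin group. Rrm2, the regulated subunit of ribonucleotide reductase, had 6.68 to 38.3 CPM (median 19.8) in control naive libraries and 346 to 627 (median 497) in GC, a rise of 4.46 (SE 0.35, adjusted p = 1.80e-10 by edgeR). Tk1, thymidine kinase, rose 3.69 and Tyms 3.59. Rrm1, the large reductase subunit, rose 2.96 and Dut, dUTPase, 2.73. Of the chromatin group all 5 rose. Uhrf1, which guides the maintenance methyltransferase Dnmt1 to newly made DNA, had 0 to 35.2 CPM (median 7.11) in naive and 251 to 352 (median 284) in GC libraries of controls, a rise of 4.77 (SE 0.24, adjusted p = 1.73e-36 by edgeR). Chaf1a, of the assembly factor CAF-1, rose 4.45, Dnmt1 2.56 and Slbp, which binds the stem-loop of histone mRNA, 1.88. Only 12 Uhrf1, 4 Chaf1a, 13 Tyms and 14 Tk1 UMIs were counted over the 8 control naive libraries. The size of these rises is thus set by few molecules.

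**Figure D2:**
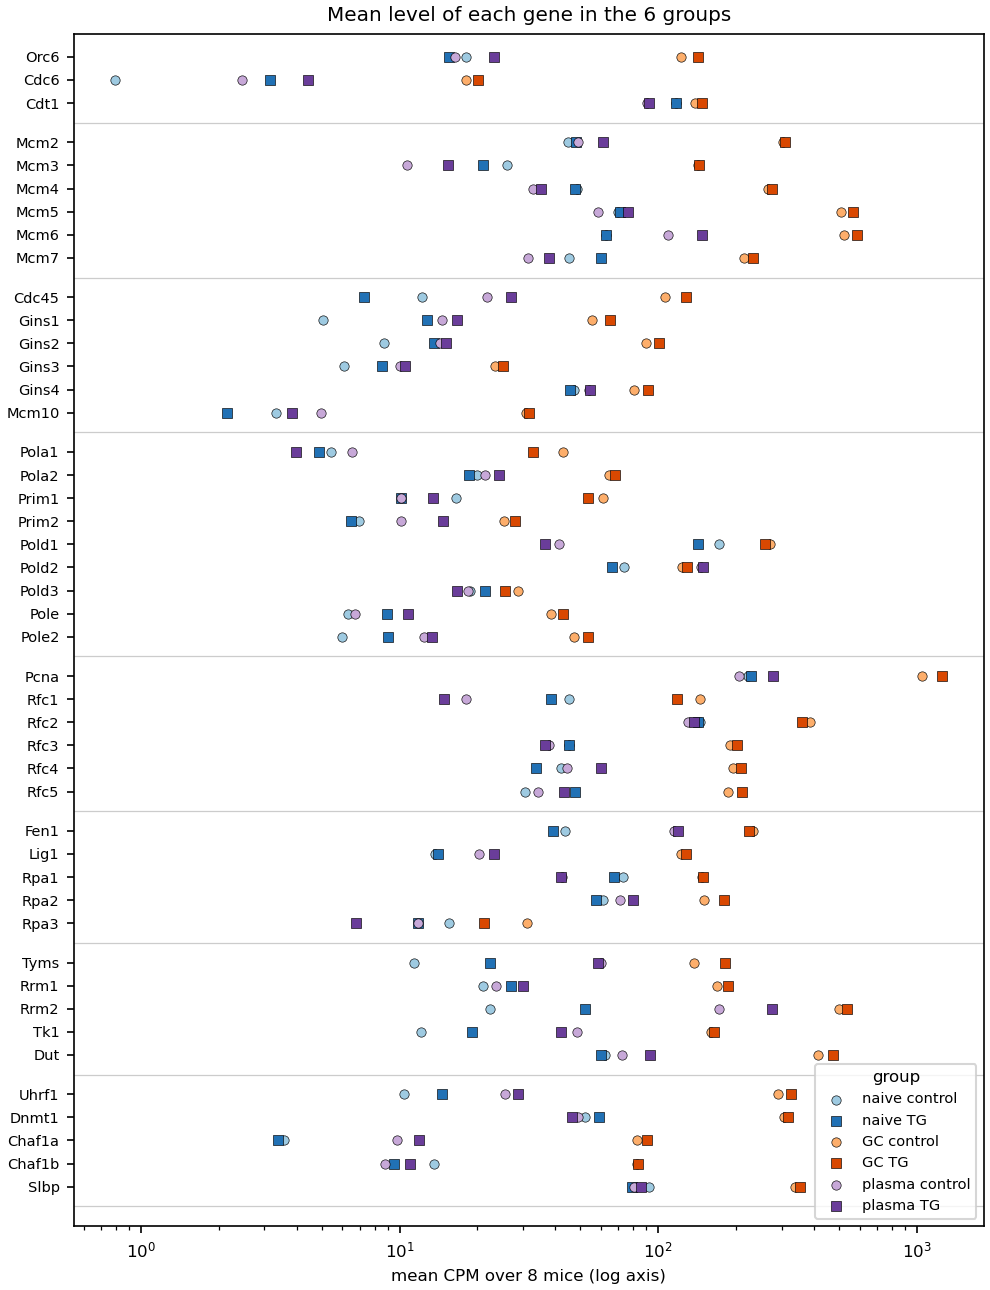
Mean level over 8 mice of each of the 45 genes (y axis, grouped by role) in CPM on a log axis, in 6 groups (circles control, squares transgenic). The GC symbols lie to the right of the others for 44 genes, and for Pold2 plasma cells reach a mean of 149 CPM in transgenic mice against 130 in GC B cells.

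Lists of related genes were tested beside the 45, against the 26.7% of all genes that were higher and 24.6% lower. Of 38 other origin and replisome genes 31 were tested in controls, with 25 higher and 0 lower in GC B cells than in naive cells. Of 37 other nucleotide synthesis genes 22 of 31 tested were higher and 7 lower. Of 21 E2F factors and S phase regulators 9 of 11 tested were higher and 1, the cyclin-dependent kinase inhibitor Cdkn1b, was lower at -2.94. All 21 tested mitosis genes of 24 were higher, with a median of 4.70, against 2.56 for the 45 genes. That difference between lists was not tested. The 24 mitosis genes together had 139 UMIs over the control naive libraries, and 0 passed the filter within naive cells. The size of their rise is thus set by few molecules.

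Plasma cells held much less replication mRNA than GC B cells. In controls 42 of 43 genes were lower in plasma cells and 1, Pold2, was higher, where 35.5% of all genes were lower and 30.3% higher. The median log2 fold change was -2.31 against -0.09 over all genes. Within plasma cells 22 of the 45 passed the filter and within GC B cells 45. Many were thus tested through the GC counts, where they are high, so for them the filter itself favoured a fall. In transgenic mice 44 of 45 were lower (37.6% of all genes), with a median of -2.10. For 38 of 45 genes, in each genotype, all GC libraries lay above all plasma cell libraries, against 19.3% of all genes tested in controls and 20% in transgenic mice. By role the control medians ran from -3.02 for the chromatin group and -2.84 for MCM2-7 to -1.65 for deoxynucleotide synthesis and -1.35 for Okazaki processing. In transgenic mice they ran from -2.75 for the chromatin group to -1.69 for Okazaki processing, with polymerases and deoxynucleotide synthesis both at -1.92. Mcm3 fell by 3.64 and Uhrf1 by 3.46 on the log2 scale.

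Some genes kept more of their GC level. The smallest falls in controls were those of Gins4 (fell by 0.55) and Cdt1 (fell by 0.59). Fen1 fell by 0.97, Tyms by 1.16 and Rrm2 by 1.49 in controls, whereas Pcna fell by 2.31 (SE 0.08, adjusted p = 1.80e-51 by edgeR). Fen1 had 184 to 287 CPM (median 233) in control GC libraries and 63.0 to 158 (median 123) in plasma cells. Rrm2 had 91.3 to 324 CPM (median 151) in plasma cells, below every control GC library. Pold3 passed by a small margin in controls (-0.61, adjusted p = 0.0408 by edgeR; 0.0560 with DESeq2), and its call was lost in 5 of 8 fits that left out 1 mouse.

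Pold2, which with Pold1 forms the core of polymerase delta, stood apart from its partner. It had 46.7 to 91.4 CPM (median 80.6) in control naive libraries, 86.0 to 143 (median 133) in GC and 123 to 186 (median 142) in plasma cells. GC and plasma cell libraries overlapped, and the difference of 0.28 (SE 0.11, adjusted p = 0.0256 by edgeR) was lost in 3 of 8 fits without 1 mouse, with an adjusted p of up to 0.0804. Without TMM the same value was -1.15, against a median of -1.51 over all genes, so relative to all genes it was 0.36. In transgenic mice it was 0.22 with an adjusted p of 0.0774. Pold1 had 25.2 to 59.3 CPM (median 39.7) in control plasma cells, below all naive and GC libraries of controls, and fell by 2.68 from GC.

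Against naive B cells, plasma cells showed a mixed picture. In controls 8 of 43 genes were higher and 4 lower, fewer than the 27.2% and 25.4% of all genes, and the median was 0.16 against 0.01 over all genes. The genes that rose were led by deoxynucleotide synthesis: Rrm2 by 2.97 (SE 0.43, adjusted p = 2.62e-06), Tyms by 2.43 (SE 0.41, adjusted p = 2.20e-06) and Tk1 by 2.05 (SE 0.35, adjusted p = 3.86e-07), all by edgeR. Fen1 (1.43), Gins1 (1.49), Uhrf1 (1.31), Pold2 (1.03) and Mcm6 (0.86) also rose. Over the 8 control naive libraries Gins1 had 6 UMIs, Uhrf1 12, Tyms 13, Tk1 14 and Rrm2 26. The size of the rises of these genes is thus set by few molecules. In transgenic mice Gins1 was at 0.34. The genes that fell were Pold1 (-2.03, SE 0.17, adjusted p = 3.76e-21 by edgeR), Rfc1 (-1.29), Mcm3 (-1.20) and Rpa1 (-0.72).

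These values depend on the scaling. Without TMM the median of all genes moved to -1.33, and 27 of the 43 genes were then called lower and 2 higher. The pair that stayed higher was Rrm2 at 1.63 and Tyms at 1.09, and Pold1 was at -3.38. Relative to the shifted median, Rrm2 stood at 2.96, Tyms at 2.42, Tk1 at 2.04, Mcm6 at 0.85 and Pold1 at -2.05, close to the TMM values. TMM is 1 factor per library, so leaving it out moves all genes by nearly the same amount. This closeness follows from that and is not a separate check.

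**Figure D3:**
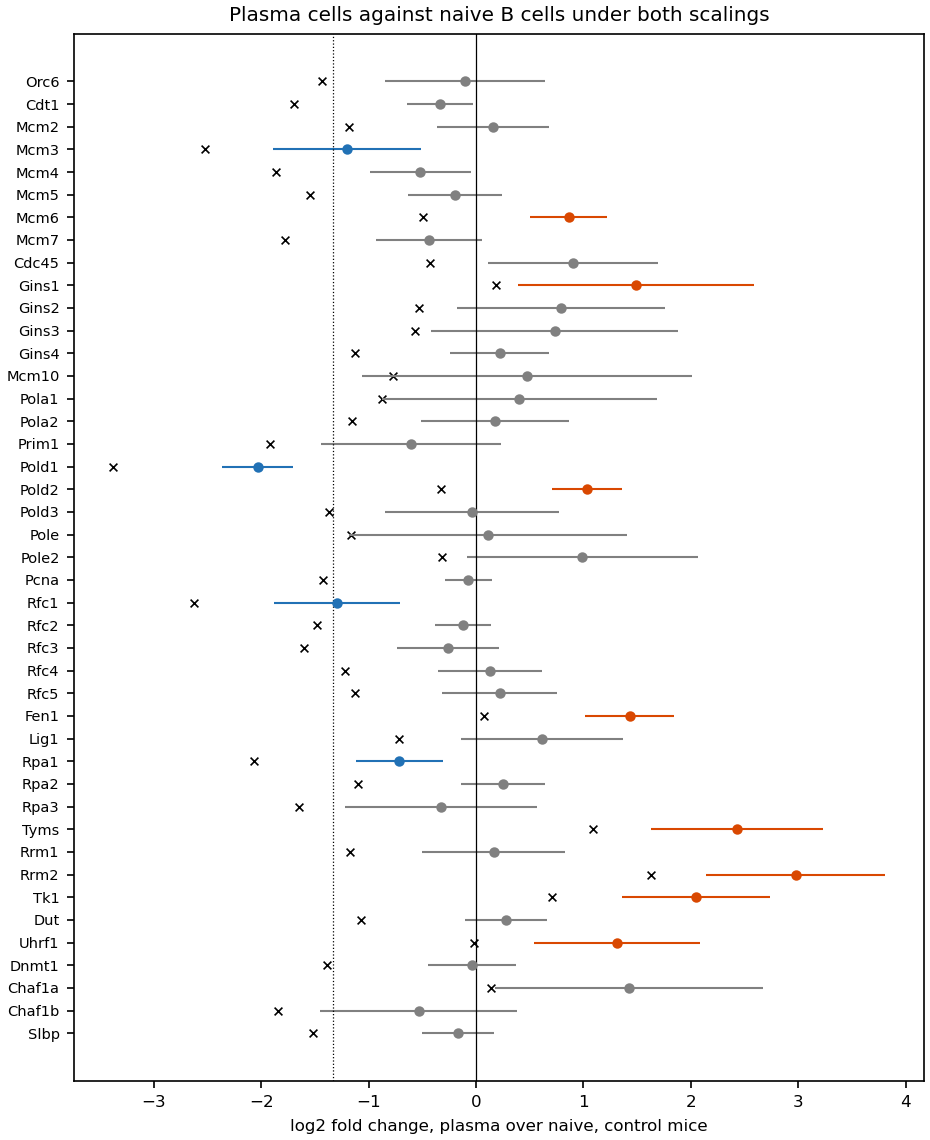
Log2 fold change of plasma cells over naive B cells in control mice (x axis) for the 43 tested genes; dots with 95% intervals are TMM-scaled (orange higher, blue lower, grey not called), crosses are without TMM, and the dotted line is the median of all genes without TMM (-1.33). Rrm2, Tyms and Tk1 lie farthest right and Pold1 farthest left under both scalings, which differ by nearly the same amount for all genes.

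In transgenic mice 14 of 45 genes were higher in plasma than in naive cells and 4 lower (28.1% and 26.7% of all genes). Of these, 7 of the 14 higher and 3 of the 4 lower ones were also called in controls (87.5% of the 8 and 75.0% of the 4 control calls). The limit of low counts given for controls holds here too. Rrm2 rose 2.33, Cdc45 1.98, Fen1 1.59 and Tyms 1.38, and Pold1 fell by 1.95. Without TMM, where the median of all genes was -1.20, 1 gene was called higher and 22 lower, and Cdc45 (0.79, adjusted p = 0.156), Fen1 (0.38, 0.0843) and Tyms (0.18, 0.588) were not called by edgeR. Whether the sets differ between genotypes is given by the contrast of the genotype effects: for plasma against naive cells 0 of 45 genes passed in edgeR or DESeq2, with 1 and 2 at an unadjusted p under 0.05. Among the mitosis genes 16 of 21 tested were higher in control plasma cells than in naive cells and 19 of 21 in transgenic ones.

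Between genotypes few of the 45 genes were called in GC B cells. All 45 were tested; Pcna and Tyms were higher and Rfc1 lower in transgenic mice, 3 of 45, where 7.68% of all 6393 genes were called (3.58% higher and 4.10% lower). That share is close to the background. The log2 fold change was above 0 for 35 genes and below 0 for 10, with a median of 0.07 against -0.00 over all genes, and for 0 of the 45 did the libraries of the genotypes separate fully. Of all genes tested, 0.344% separated with the transgenic libraries above and 0.282% with the control ones above. At an unadjusted p under 0.05 edgeR counted 10 genes and DESeq2 10, and DESeq2 also called 3.

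Pcna had 971 to 1170 CPM (median 1037) in control GC libraries and 1138 to 1415 (median 1226) in transgenic ones, means of 1046 ± 67.6 and 1255 ± 84.4 (SD, n = 8). The groups overlapped at their edges, and the log2 fold change was 0.24 (SE 0.05, adjusted p = 0.00133 by edgeR). Tyms had 89.6 to 168 CPM (median 139) in controls and 139 to 218 (median 181) in transgenic mice, also with overlap, and rose 0.37 (SE 0.10, adjusted p = 0.0133 by edgeR). Rfc1 had 130 to 172 CPM (median 139) in controls and 98.2 to 149 (median 116) in transgenic mice and fell by 0.31 (SE 0.09, adjusted p = 0.0221 by edgeR). The transgenic libraries of mice 7 and 13 lay within the control range and the other 6 below it.

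The calls differed in how firmly they held. Pcna and Tyms kept theirs in all 16 fits that left out 1 mouse, but with all 48 libraries in 1 fit only Pcna passed (Tyms 0.39, adjusted p = 0.0707 by edgeR). Rfc1 lost it in 5 of 16, without control mice 1, 9 or 11 or transgenic mice 5 or 14, with an adjusted p of up to 0.0685. With counts thinned to equal depth, which bears on the deeper transgenic GC libraries, Pcna was at 0.24 (adjusted p = 0.00285 by edgeR) and Tyms at 0.37 (adjusted p = 0.0303), and Rfc1 at -0.29 had an adjusted p of 0.0751. Within mice 1 to 8 the values were 0.22, 0.32 and -0.26 and none passed; within mice 9 to 16 they were 0.27, 0.42 and -0.36 and Pcna and Tyms passed.

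**Figure D4:**
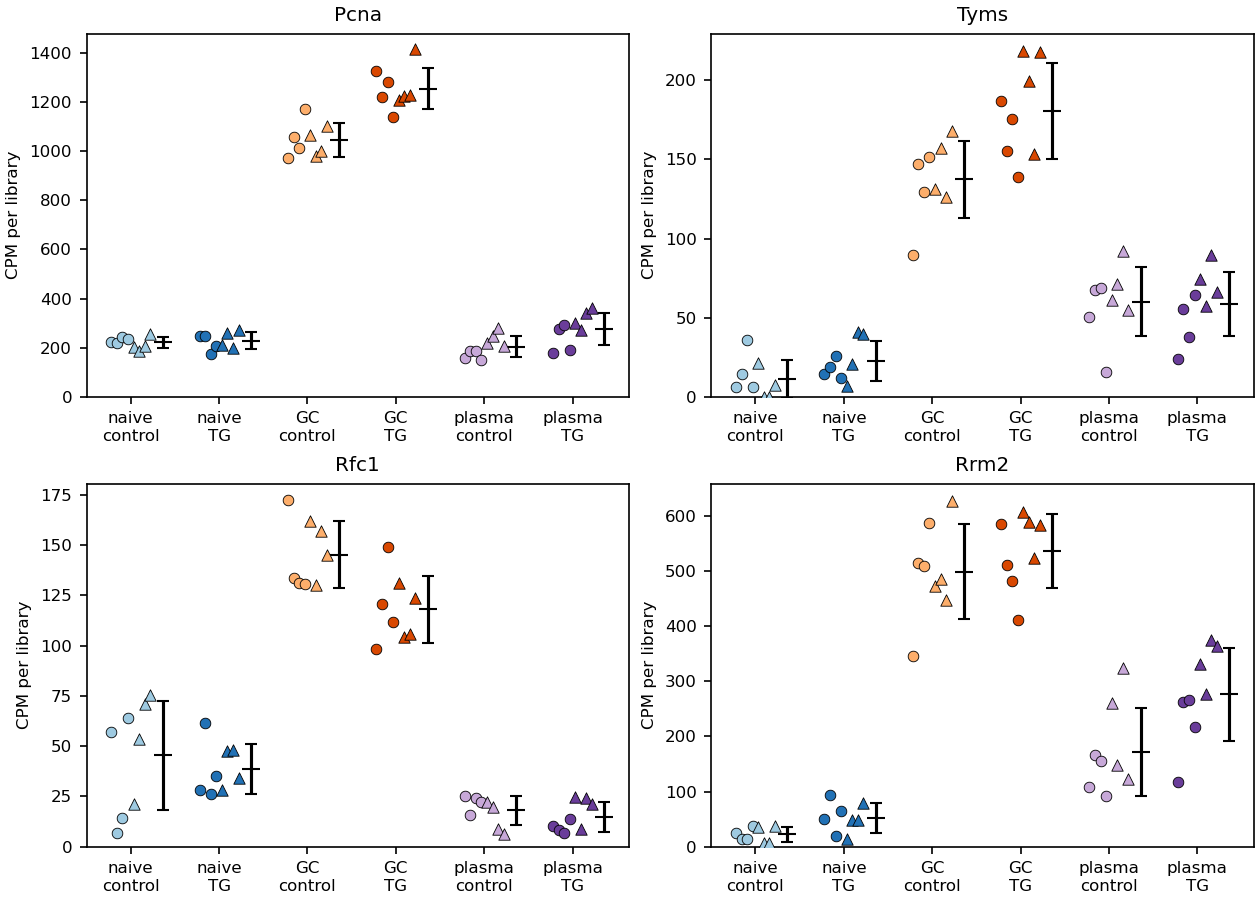
Level in CPM (y axis, from 0) of Pcna, Tyms, Rfc1 and Rrm2 in each of the 48 libraries by group (circles mice 1 to 8, triangles mice 9 to 16, bars mean ± SD, n = 8). In GC B cells Pcna lies at 971 to 1170 in controls and 1138 to 1415 in transgenic mice, and Rfc1 at 130 to 172 and 98.2 to 149.

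Of the other members by role, all 3 licensing genes, all 6 MCM2-7 subunits, all 6 helicase activators and all 5 deoxynucleotide genes had values above 0 in GC B cells, and only Tyms among them passed. The next lowest adjusted p values were those of Pola1 (-0.40, 0.0812), Dut (0.18, 0.0829), Rpa2 (0.23, 0.0844) and Cdc45 (0.25, 0.100), by edgeR. Summed over MCM2-7, controls had 1961 ± 86.9 CPM and transgenic mice 2112 ± 88.2 (SD, n = 8); summed over clamp and loader the means were 2148 and 2350. Of the 9 polymerase genes 5 had values above 0 and 4 below, with 0 called and sums of 701 ± 44.3 and 692 ± 41.2 CPM. The mean was higher in transgenic than in control GC B cells for 37 of the 45 genes, before any test. This count was not made over all genes. Genes measured in the same libraries are not independent, so counts of signs are no test of the list.

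Naive markers without Ighm summed to 454 to 750 CPM in control GC libraries and 229 to 642 in transgenic ones, and their part in these values was not tested. T cell markers summed to 0 to 5.13 CPM and NK cell markers to 0 to 3.23 in GC libraries of either genotype. Globin genes summed to 26.4 to 1074 CPM in transgenic and 51.4 to 515 in control GC libraries, and reached 1062 in 1 control plasma cell library. The 24 mitosis genes summed to 2292 to 3719 CPM in control and 2831 to 3641 in transgenic GC libraries, and 0 of their 22 tested members were called there.

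Other genes of DNA copying and nucleotide synthesis were called in GC B cells by edgeR, where 7.68% of all 6393 genes tested were called. Of 34 other origin and replisome genes tested 2 were higher and 2 lower in transgenic mice: Pole3, an accessory subunit of polymerase epsilon (0.42, adjusted p = 0.0103), and the histone chaperone Nasp (0.27, 0.00943) were higher, and Top1, topoisomerase I (-0.23, 0.0163), and Pold4, the small subunit of polymerase delta (-0.25, 0.0292), were lower. Pold4 lost its call in 7 of 16 fits without 1 mouse. Of 32 other nucleotide synthesis genes 4 were higher and 0 lower. They were Impdh2, the step that commits to guanine nucleotides (0.36, adjusted p = 0.00153), Atic, which completes the purine ring (0.48, 0.00710), and the serine hydroxymethyltransferases Shmt1 (0.82, 0.0134) and Shmt2 (0.30, 0.0205), which feed one-carbon units into purine and thymidylate synthesis. Shmt2 lost its call in 4 of 16 fits. Among 13 tested E2F factors and S phase regulators 0 were called.

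In plasma cells 22 of the 45 genes were high enough to be tested between genotypes, and 0 passed in edgeR or DESeq2, where 6.13% of all 4538 genes were called. At an unadjusted p under 0.05 both tools counted 3: Pcna, Mcm6 and Rrm2. The value was above 0 for 16 of the 22 and below 0 for 6, with a median of 0.08 against 0.01 over all genes. Of the 45 genes 34 had a higher mean in transgenic plasma cells, a count not made over all genes. Summed over all 45, controls had 2074 ± 343 CPM and transgenic mice 2427 ± 497 (SD, n = 8), with overlapping ranges.

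Pcna had 151 to 280 CPM (median 197) in control plasma cells and 178 to 362 (median 285) in transgenic ones, a difference of 0.43 (SE 0.15, adjusted p = 0.0992 by edgeR). Mcm6 had 63.3 to 193 CPM (median 89.6) in controls and 119 to 169 (median 151) in transgenic mice (0.39, SE 0.16, adjusted p = 0.172). Rrm2 had 91.3 to 324 (median 151) and 117 to 375 (median 272) CPM (0.67, SE 0.28, adjusted p = 0.197). In all of them the groups overlapped widely. Tyms, higher in transgenic GC B cells, had a median of 64.2 CPM in control plasma cells (up to 92.3) and of 60.8 in transgenic ones (up to 89.7) (-0.02, SE 0.23, adjusted p = 0.976).

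**Figure D5:**
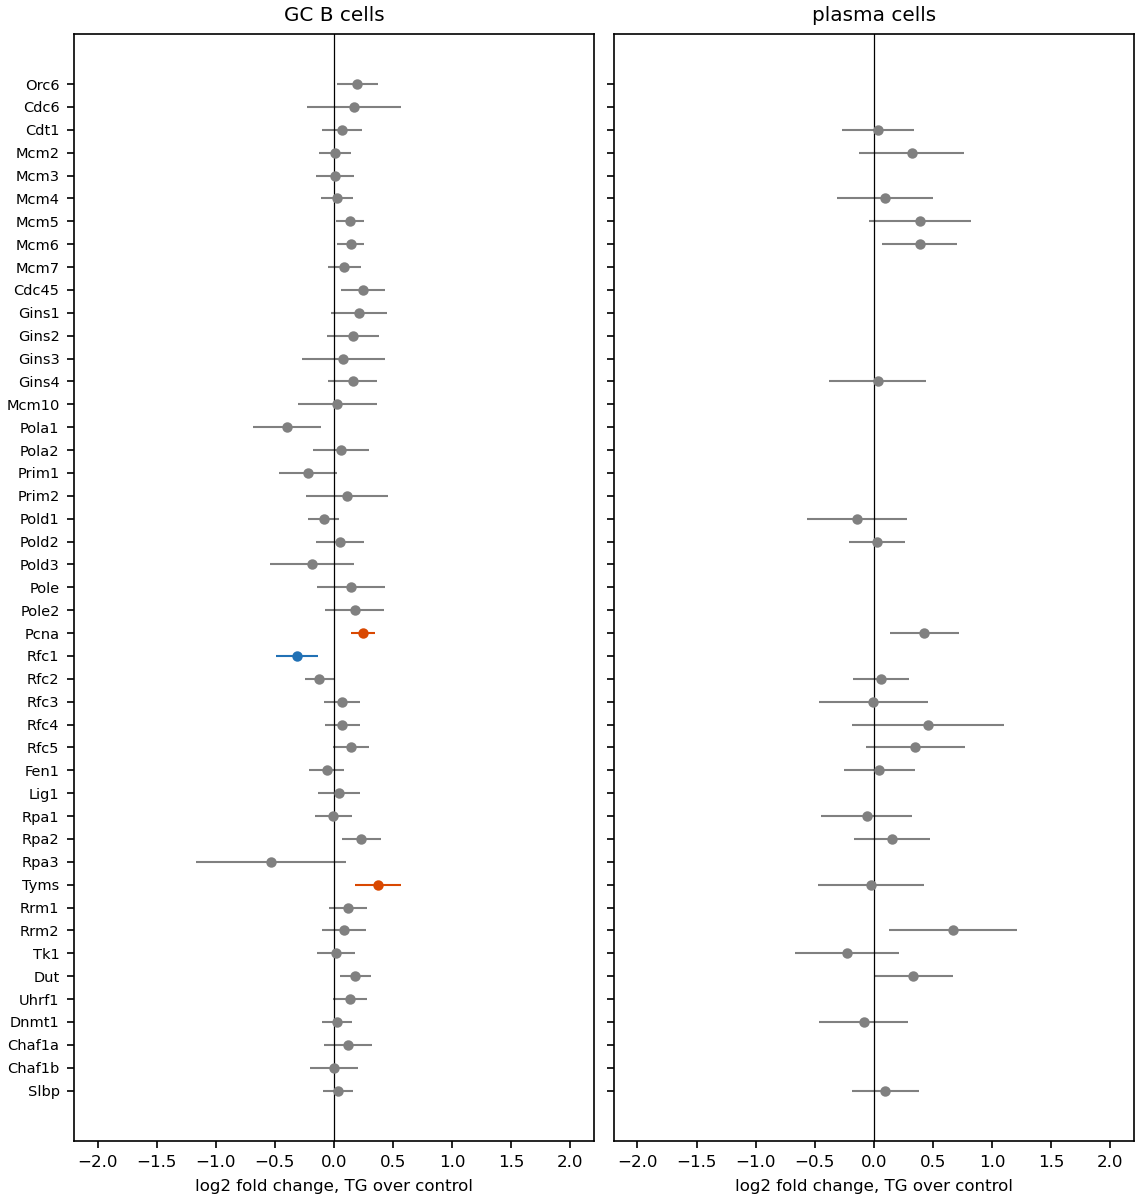
Log2 fold change of transgenic over control mice (x axis) for each tested gene in GC B cells (left, 45 genes) and plasma cells (right, 22 genes), with 95% intervals; orange is called higher, blue called lower, grey not called. Pcna (0.24) and Tyms (0.37) are orange and Rfc1 (-0.31) blue on the left, and all symbols on the right are grey.

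Libraries also differed by mouse number. In transgenic plasma cells the 45 genes summed to 1652 to 2259 CPM in mice 5 to 8 and to 2593 to 3026 in mice 13 to 16, without overlap, and 41 of 45 means were higher in the latter. In control plasma cells the sums were 1678 to 2025 in mice 1 to 4 and 1913 to 2634 in mice 9 to 12, and 33 of 45 means were higher in the latter. Mitosis genes followed the same split, with 397 to 614 against 908 to 1232 CPM in transgenic and 354 to 463 against 427 to 955 in control plasma cells. In GC B cells the sums of the 45 genes overlapped between mice of low and high number (8448 to 9907 and 8920 to 10020 CPM in transgenic mice, 7777 to 9255 and 8413 to 9067 in controls), while mitosis genes had 2831 to 3081 against 3448 to 3641 CPM in transgenic mice, without overlap, and 2292 to 3179 against 3080 to 3719 in controls, which overlapped. Depth differed along with it. Plasma cell libraries held 526471 to 631793 UMIs in transgenic mice 5 to 8 and 671639 to 794273 in mice 13 to 16. In control mice 1 to 4 they held 481229 to 569910, and in mice 9 to 12 588934 to 692336. The part of depth in these sums was not tested, and the counts of higher means were not made over all genes. The labels do not say what the numbers mark, and this split by mouse number was noticed in these data. With the split as a covariate Pcna (0.43, adjusted p = 0.00523 by edgeR) and Mcm6 (0.40, adjusted p = 0.0486) passed between genotypes in plasma cells. Within mice 1 to 8 Mcm6 passed (0.73, adjusted p = 0.0362), and within mice 9 to 16 the number called was 0.

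Control plasma cell libraries of mice 9 and 10 carry other codes in their titles than the rest. After the mouse number these read A_plus for mouse 9 and B_minus for mouse 10, where the other plasma cell titles read B_plus. The labels do not say what the codes mean. Without them Mcm6 was called (0.68, adjusted p = 0.00169 by edgeR), and 1 gene passed in the contrast of genotype effects between plasma and GC cells. T cell markers summed to 76.7 to 144 CPM in control and 24.5 to 113 in transgenic plasma cells, all 7 plasma cell markers to 103333 to 157146 and 66460 to 117061, and naive markers without Ighm to 178 to 360 and 79.3 to 178; the part of these in the values above was not tested.

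A few related genes did pass in plasma cells, where 6.13% of all 4538 genes tested were called. E2f2, an E2F factor, had 39.8 to 79.1 CPM (median 52.5) in control and 79.2 to 139 (median 115) in transgenic plasma cells, with a rise of 1.08 (SE 0.16, adjusted p = 3.43e-06 by edgeR). The libraries did not overlap, though the closest pair differed by a small fraction of the spread. Ccne1, the cyclin that drives entry into S phase, rose 0.84, so that 2 of 5 tested E2F factors and S phase regulators were called. Mki67, a marker of cycling cells, rose 1.10, the 1 call among 7 tested mitosis genes, from 28.8 to 51.4 CPM in controls to 54.8 to 173 in transgenic mice. Top1 rose 0.41, the 1 call among 14 tested origin and replisome genes. Of 21 tested nucleotide synthesis genes Samhd1, a dNTP hydrolase (0.31), was higher and Dguok, mitochondrial deoxyguanosine kinase (-0.66), and Adssl1, of adenine nucleotide synthesis (-0.70), were lower; each lost its call in 1 or 2 of 16 fits without 1 mouse.

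In naive B cells 7 of the 45 genes were tested (Cdt1, Pold1, Pold2, Pcna, Rfc2, Rpa1 and Slbp) and 0 passed in edgeR or DESeq2, with 0 at an unadjusted p under 0.05 in both; 1.17% of all 2131 genes were called. The lowest adjusted p was that of Pold1 (-0.27, 0.534). Means were higher in transgenic mice for 20 of 45 genes. At this depth a gene such as Rrm2 had 26 UMIs over the 8 control and 71 over the 8 transgenic naive libraries and was not tested.

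Whether the genotype difference itself changed between populations was tested in a fit of all 48 libraries. Of the 45 genes 0 passed in each of the 3 contrasts in edgeR and DESeq2, where between 0.129% (GC against naive cells) and 1.52% (plasma against GC cells) of 7744 genes were called, with 1.08% for plasma against naive cells. At an unadjusted p under 0.05 edgeR counted 1 gene in each contrast. The lowest adjusted p for plasma against GC cells was that of Rrm2 (0.58, SE 0.25, adjusted p = 0.307 by edgeR). The difference seen in GC B cells for Pcna, Tyms and Rfc1 is therefore not shown to differ from that in the other populations.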

How the data were processed

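Bulk SCRB-seq libraries of 1000 sorted cells were analysed from a table of UMI counts per gene, which the authors deposited. Per the submitters' processing notes the aligner was STAR and the build GRCm38.p5; the releases of STAR and of the annotation, and how UMIs were collapsed, were not given in the sources used here. GENCODE M21 gave symbols for 19701 of 20007 genes. All columns matched 1 sample each, and no pair of libraries held identical counts. Libraries held 97993 to 794273 UMIs, and PCR or counting error beyond the UMIs was not modelled.

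Counts were tested with edgeR 4.0.16 (R 4.3.3, limma 3.58.1): quasi-likelihood fit with robust dispersion, TMM, filterByExpr, Benjamini-Hochberg over all genes tested, threshold 0.05. Genotypes were compared within a population, populations within a genotype, and genotype effects in a fit of all 48 libraries. CPM used the TMM factors of that fit. Library totals were compared by exact permutation with scipy 1.17.1. Fits were tested on simulated data. Members and lists were chosen with earlier results of these data known. All 45 members are accounted for by role; values by library are given for members called between genotypes, those highest in their role, and Pold2 and Uhrf1, chosen after their values were seen; others are those with the largest or smallest change in a role. Up to 4 called genes of the other lists are named, plus some chosen after their values were seen.

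Each mouse gave 3 libraries, so that the labels' animal number pairs the populations. Deviations from group means correlated by 0.00729 to 0.0533 on average within a mouse. Alternatives were DESeq2 1.42.0, no TMM, no filter, no immunoglobulin genes, thinned counts, 1 fit of all libraries, the mouse as a block, leaving out libraries and, chosen after seeing the data, splits by mouse number. Some listed markers are not reported here.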

Additional observations from a re-analysis of the deposited data

Results flagged for a closer look

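In 84 groups of 8 libraries (12 genes, the summed level and the total UMIs in 6 groups each), 4 held a library whose distance to its nearest neighbour was a large share of the group's range; chance gives about 1 in 20. They were Mcm6 in naive B cells of transgenic mouse 6, at 137 CPM, Pold1 in GC B cells of transgenic mouse 13, at 216 CPM, Uhrf1 in plasma cells of transgenic mouse 16, at 44.9 CPM, and the total of the GC library of control mouse 12, at 594068 UMIs.

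The genotype difference itself differed between plasma cells and GC B cells for 4 related genes that are not among the 45, by the contrast in the fit of all 48 libraries. The difference, plasma minus GC, was 0.64 on the log2 scale for Top1, -0.77 for Impdh2, 1.25 for E2f2 and 1.04 for Mki67. These genes are named because they differed, out of related lists of 38, 37, 21 and 24 genes. In this contrast 1.52% of all 7744 genes tested were called.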

How the results depend on the processing

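The numbers of called members moved by at most 1.5 times in 206 refits and by more in 15. In GC B cells 3 members called between genotypes became 1 with all libraries in 1 fit (Pcna), 0 within mice 1 to 8, and 2 to 6 without 1 mouse (6 without transgenic mouse 8, 5 without control mouse 12). In plasma cells 0 became 2 with all libraries in 1 fit (Pcna, Rrm2), 1 with no filter (Pcna), 1 without the control libraries of mice 9 and 10 (Mcm6), 2 with the mouse number split as a covariate, 1 within mice 1 to 8, and 0 to 1 without 1 mouse (Pcna without transgenic mouse 5 or 8 or control mouse 11, Mcm6 without control mouse 10). In naive cells and for the contrasts of genotype effects leaving out 1 mouse gave 0 to 0, and the contrast of plasma against GC cells gave 1 without the libraries of mice 9 and 10. Between populations leaving out 1 mouse gave, in controls and transgenic mice, 41 to 42 and 42 to 43 for GC against naive, 42 to 44 and 43 to 45 for plasma against GC, and 11 to 15 and 15 to 17 for plasma against naive cells.

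Without TMM plasma against naive cells of controls gave 29 calls (2 higher, 27 lower) and those of transgenic mice 23 (1 higher, 22 lower). Members above 0 with TMM, below 0 without it and called under either scaling were, in controls, Mcm2 -1.19, Mcm6 -0.49, Gins4 -1.13, Pola2 -1.16, Pold2 -0.33, Rfc4 -1.22, Rfc5 -1.12, Rpa2 -1.10, Rrm1 -1.17, Dut -1.07 and Uhrf1 -0.018. In transgenic mice they were Mcm2 -0.86, Mcm5 -1.07, Mcm6 -0.076, Gins4 -0.96, Pola2 -0.81, Pold2 -0.056, Pcna -0.93, Rfc4 -0.35, Rpa2 -0.75, Rrm1 -1.03, Tk1 -0.033, Dut -0.56, Uhrf1 -0.25 and Slbp -1.11. For plasma against GC cells Pold2 was at -1.15 in controls and -1.08 in transgenic mice. The median of all genes without TMM was at -1.33 and -1.20 for plasma against naive cells, and at -1.51 and -1.41 for plasma against GC cells, in controls and transgenic mice.

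With the mouse as a replicate block, which the pairing of libraries allows, calls were 41, 43 and 12 in controls (GC against naive, plasma against GC, plasma against naive) and 42, 44 and 17 in transgenic mice; the call lost was that of Rpa2 (0.44, adjusted p = 0.0561 by edgeR), and contrasts of genotype effects stayed at 0. Depth limits the naive cells most, where 7 of 45 members were tested.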
